A study of Mus musculus with 18 samples.

Results

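Spinal cords of mice heterozygous for a human ATXN2 knock-in with a tract of 22 glutamines (Q22) were set against cords of non-transgenic C57BL/6 mice (NTg). Each group held 3 libraries, so the comparison used 6 of the 18 libraries of the series, chosen by their genotype labels alone. All 18 mice were 10 months old and untreated, and total RNA of the spinal cord was sequenced after removal of ribosomal RNA. The other groups, again of 3 libraries each, were Q22 together with a heterozygous human TDP-43 knock-in (the Q22 double knock-in), a heterozygous ATXN2 knock-in with 33 glutamines (Q33), Q33 with TDP-43 (the Q33 double knock-in) and TDP-43 alone. Of 54446 annotated mouse genes, 20635 had enough reads to be tested. The labels used here give neither the sex of the animals nor the promoter or genomic site of the human sequence.

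Ataxin-2 is a cytoplasmic RNA-binding protein. It binds the poly(A)-binding protein, regulates the stability and translation of mRNAs and enters stress granules. Its N-terminal glutamine tract causes spinocerebellar ataxia type 2 when it is long, and tracts of intermediate length raise the risk of amyotrophic lateral sclerosis (ALS), while a tract of the length in the Q22 line is the common human form. TDP-43, the product of Tardbp, is the nuclear RNA-binding protein that aggregates in most patients with ALS. Q22 against NTg therefore asks what human ATXN2 with a normal tract does to the cord transcriptome, the baseline against which a longer tract is read.

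The stretch of mouse Atxn2 below is shown because it holds a run of glutamine codons as long as any in the endogenous gene. It lies toward the C-terminal end and is not the counterpart of the N-terminal human tract. In its reference coding sequence of 1286 codons, 80 encode glutamine, and the longest unbroken run of glutamine codons is 3, reached at 3 places. The first of these lies in exon 22 of 25, at chr5:121810916-121810984 on the + strand of GRCm38 (mm10). Capitals mark the glutamine codons of the run, which starts at codon 1129.
Atxn2 exon 22: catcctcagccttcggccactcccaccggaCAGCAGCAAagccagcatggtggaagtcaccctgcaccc
Reads were counted on mouse genes, and the human tract itself was not analysed here.

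Library totals were 19796403 to 23852604 counts in Q22 and 18578745 to 23980491 in NTg, so that 3 counts corresponded to 0.126 to 0.152 CPM in Q22 and 0.125 to 0.161 CPM in NTg. CPM are counts scaled to a common library size. Y-linked reads coincided with genotype. Reads of 4 Y-linked genes summed to 162 to 200 CPM in the 3 Q22 libraries and to 0.756 to 1.98 CPM in the 3 NTg libraries. The library of Q22 replicate 2 stood apart, with 99.8 CPM of Xist, the RNA that silences an X chromosome in female cells, beside 200.4 CPM of Y-linked reads, whereas Xist was at 5.62 and 4.82 CPM in the other Q22 libraries and at 586 to 654 CPM in NTg. Mitochondrial ribosomal RNA took 20.1% ± 0.539 of the counts in Q22 and 17.8% ± 3.05 in NTg (SD, n = 3 each; exact two-sided permutation test, p = 0.2, where 3 against 3 cannot go below 0.1). The lower NTg mean came from replicate 1, at 14.3%. Cord tissue markers were present in both groups: the neuronal gene Snap25 was at 3367 to 3611 CPM in Q22 and 2728 to 3517 CPM in NTg, and the astrocyte gene Aqp4 at 683 to 774 CPM in Q22 and 707 to 960 CPM in NTg.

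Mouse Atxn2 (ENSMUSG00000042605.16, chromosome 5, 121711337 to 121816493, + strand) had 176, 186 and 185 CPM in Q22 and 169, 193 and 185 CPM in NTg. The groups overlapped, and the log2 fold change was 0.00 with a 95% interval of -0.17 to 0.17. Tardbp (ENSMUSG00000041459.15, chromosome 4, 148612382 to 148627019, - strand) had 110, 107 and 110 CPM in Q22 and 127, 127 and 124 CPM in NTg. Every Q22 library lay below every NTg library, by a log2 fold change of -0.21 (SE 0.07, unadjusted p = 0.0068). The edgeR adjusted p over all genes was 0.91, so the difference did not pass the test. Tardbp was at 112 to 129 CPM in the Q22 double knock-in, 115 to 121 CPM in Q33 and 118 to 123 CPM in TDP-43, all above the Q22 libraries.

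**Figure D1:**
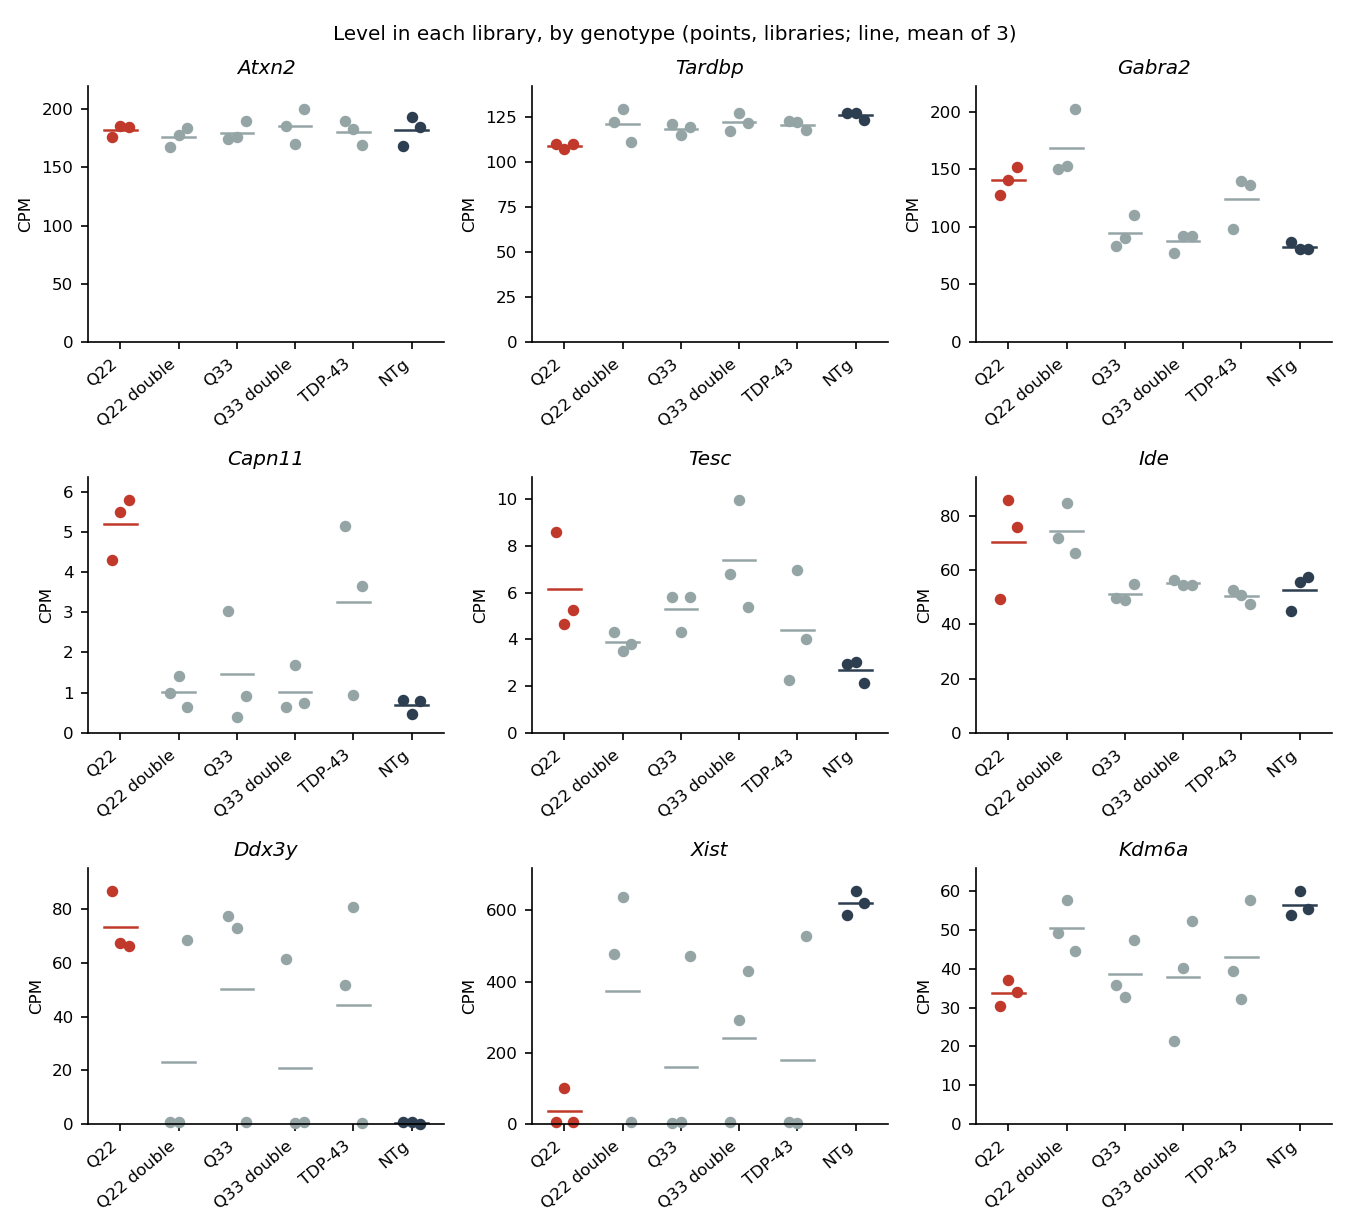
Level of 9 genes in CPM (vertical axes, linear, from 0) in each of the 18 libraries, by genotype; points are libraries and lines are means of 3. Atxn2 is level across genotypes, Gabra2 sits at 128 to 152 CPM in Q22 and 80.3 to 86.9 CPM in NTg, and the Y-linked gene Ddx3y and the X-linked Xist split Q22 from NTg but divide the libraries within each of the other genotypes.

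No gene separated Q22 from NTg cords in the main test, edgeR's quasi-likelihood test, in which 0 of 20635 genes reached an adjusted p of 0.05 (percent called 0). The smallest adjusted p was 0.75, for Gabra2, and it was 0.91 or above for every other gene named here. Unadjusted p values under 0.05 numbered 873, or 4.23% of the genes, 432 higher (2.09%) and 441 lower (2.14%) in Q22, where 1032 would be reached by chance alone. DESeq2 on the same 18 libraries called 2 genes, Gabra2 and Capn11, both higher in Q22, and had 971 genes with an unadjusted p under 0.05. An edgeR fit to the 6 libraries alone called 6 genes, all higher in Q22: Gabra2, Capn11 and the Y-linked Kdm5d, Uty, Ddx3y and Eif2s3y.

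The size of most differences was bounded. Of the 16703 genes that averaged 1 CPM or more, 87.7% had a 95% interval that lay wholly within 1 log2 unit of 0. The median SE of these genes was 0.16, and 154 of them had an estimate of at least 1 log2 unit in either direction. Over all 20635 genes tested, libraries of the groups did not overlap for 1017 that were higher in Q22 (4.93%) and 1161 that were lower (5.63%). Full separation of 3 from 3 libraries corresponds to p = 0.1 in an exact two-sided permutation test, so separation alone is weak evidence for a single gene. Single libraries moved the number of small p values. An unadjusted p under 0.05 was reached by 1961 genes without NTg replicate 1, 427 without NTg replicate 3, 456 without Q22 replicate 1 and 1601 without Q22 replicate 2, the library with both Xist and Y-linked reads. Each of these fits called 0 genes. Without Q22 replicate 2 the log2 fold change was 0.76 for Gabra2, 2.83 for Capn11 and -0.20 for Tardbp, close to the values over all 6 libraries.

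**Figure D2:**
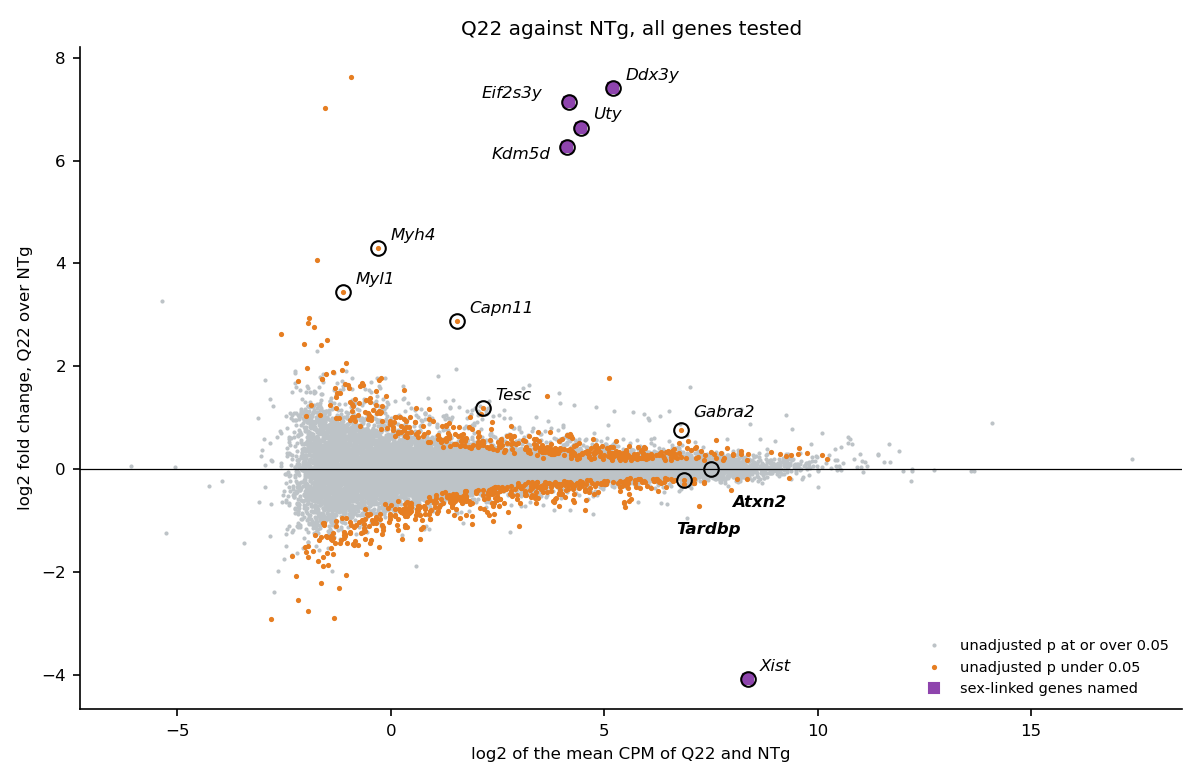
Log2 fold change of Q22 over NTg (vertical axis) against the log2 of the mean CPM of both groups (horizontal axis) for the genes tested; orange points have an unadjusted p under 0.05. The 4 Y-linked genes lie between 6.27 and 7.41 and Xist at -4.08, while Atxn2 lies at 0.00 and Tardbp at -0.21.

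The largest differences were those of sex-linked genes. Ddx3y, a Y-linked RNA helicase gene, had 86.8, 67.5 and 66.4 CPM in Q22 and 0.652, 0.573 and 0.0445 CPM in NTg. Eif2s3y (log2 fold change 7.13), Uty (6.64) and Kdm5d (6.27) were likewise near 0 in NTg. Among 10 genes of the X chromosome that escape silencing or regulate it, all 10 were lower in Q22. An unadjusted p under 0.05 was reached by 6 of them (60%, against 4.23% of all genes). Kdm6a, a histone demethylase gene with a Y-linked partner in Uty, had 30.3, 37.1 and 34.1 CPM in Q22 and 53.8, 60.0 and 55.5 CPM in NTg. Ddx3x had 225, 212 and 215 CPM in Q22 and 289, 280 and 291 CPM in NTg. None of the libraries overlapped for Kdm6a, Ddx3x, Eif2s3x (log2 fold change -0.73), Kdm5c (-0.49), Ftx (-0.61) or 5530601H04Rik (-0.72).

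None of these genes passed the fit to 18 libraries, in which the SE of the 4 Y-linked genes was 2.19 to 2.42. The other 4 genotypes held libraries of both kinds, and that fit shares 1 estimate of spread across genotypes. In the fit to the 6 libraries alone the adjusted p of the 4 ran from 1.4e-06 to 1.7e-05. By chromosome, an unadjusted p under 0.05 was reached by 46 of 640 X-linked genes (7.19%, 10 higher and 36 lower in Q22), 7 of 9 Y-linked genes (77.8%, all higher) and 820 of 19951 autosomal genes (4.11%, 415 higher and 405 lower). With a term for sex, read from the Y-linked sum and estimated from the 4 mixed genotypes, 6 genes were called higher and 6 lower in male cords. These were Kdm5d, Ddx3y, Uty, Eif2s3y and the gene models Gm18665 and Gm29650 on the Y, the X-linked Xist, Kdm5c, Ddx3x, Eif2s3x and Tsix, and the autosomal Gbp7. The genotype term of that fit again called 0 genes, with 1017 at an unadjusted p under 0.05, and the estimate of Ddx3y was 0.40. Since Y-linked reads marked all Q22 libraries and no NTg library, genotype and sex cannot be told apart within the 6 libraries.

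Gabra2 had the smallest p of all genes. It encodes the alpha-2 subunit of the GABA-A receptor, the chloride channel that carries fast inhibition in the cord and brain, and lies on chromosome 5 (70957597 to 71095849, - strand), at -50.8 Mb counted from the start of Atxn2. Its level was 128, 141 and 152 CPM in Q22 and 86.9, 80.5 and 80.3 CPM in NTg. The groups were separate, with a log2 fold change of 0.76 (SE 0.14, 95% interval 0.47 to 1.06, unadjusted p = 3.6e-05). The adjusted p was 0.0084 by DESeq2 and 0.034 in the edgeR fit to the 6 libraries, and with a sex term the log2 fold change was 0.85 with an edgeR adjusted p of 0.83. The level was also high in other genotypes: 150, 153 and 202 CPM in the Q22 double knock-in and 97.6, 139 and 136 CPM in TDP-43, against 83.3, 89.8 and 110 CPM in Q33 and 77.3 to 92.2 CPM in the Q33 double knock-in. Both Q22 genotypes thus lay above all Q33 libraries, and 2 of 3 TDP-43 libraries lay within the Q22 range.

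Most other GABA-A subunit genes had negative estimates. Gabrb1, a beta subunit gene on the same chromosome, was lower, at 116, 119 and 137 CPM in Q22 and 145, 149 and 155 CPM in NTg (log2 fold change -0.27, unadjusted p = 0.028). Of the 13 subunits tested, 3 had a positive estimate and 10 a negative one, with a median of -0.21 against 0.00 over all genes. Gabrb2 had a log2 fold change of 0.04, with overlapping libraries.

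Gabra2 is also known as a gene whose expression differs between C57BL/6 substrains, and 11 such substrain genes were measurable. Unadjusted p was under 0.05 for 5 of the 11 (45.5%, against 4.23% of all genes), 3 higher and 2 lower in Q22. None passed the adjusted threshold in the 18-library edgeR fit. Without NTg replicate 1 or Q22 replicate 3, only 2 of the list had an unadjusted p under 0.05. In the fit to the 6 libraries and with a covariate for mitochondrial ribosomal RNA, 2 did as well. With a sex term, or without NTg replicate 2 or Q22 replicate 2, 3 did. The lower genes, Entpd4b and Mmrn1, were under 1 CPM in every Q22 and NTg library. Entpd4b had 0, 0.0988 and 0 CPM in Q22 and 0.575, 0 and 0.178 CPM in NTg, near the floor of 3 counts. Ide, the gene of insulin-degrading enzyme, had 49.3, 85.7 and 75.8 CPM in Q22 and 44.8, 55.7 and 57.3 CPM in NTg (log2 fold change 0.42, SE 0.15, and 0.25 without Q22 replicate 2). Wdfy1, an endosomal adaptor gene picked here after its values were seen, had 11.9, 28.1 and 28.7 CPM in Q22 and 14.1, 15.95 and 15.3 CPM in NTg. For both genes replicates 2 and 3 of Q22 lay above the NTg libraries and replicate 1 did not. In the Q22 double knock-in Ide stood at 71.7, 84.8 and 66.3 CPM, above the 47.4 to 52.6 CPM of TDP-43, while Wdfy1 was at 13.5, 27.5 and 16.8 CPM there and 17.7, 25.6 and 25.9 CPM in TDP-43. Nnt, a mitochondrial transhydrogenase gene that is deleted in part in the C57BL/6J substrain, was low in both groups, at 2.43 to 3.21 CPM in Q22 and 2.30 to 3.23 CPM in NTg. The labels name C57BL/6 without a substrain, and the part of strain background in these differences was not tested.

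Capn11, which encodes a calpain protease known mainly from testis, was next in order of p. It had 4.30, 5.48 and 5.79 CPM in Q22 and 0.805, 0.469 and 0.801 CPM in NTg, a log2 fold change of 2.88 (SE 0.62, unadjusted p = 2e-04). The adjusted p was 0.018 by DESeq2 and 0.0043 in the 6-library fit. In the Q22 double knock-in Capn11 was at 0.645 to 1.42 CPM and in TDP-43 at 5.15, 0.942 and 3.65 CPM, so the estimate there was -1.63 and its 95% interval lay wholly below 0.

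Genes outside X and Y that averaged 1 CPM or more in Q22 or NTg were ranked by p, and the first 20 were kept. Further genes among these 20 were separate between the groups but had an edgeR adjusted p of 0.91. The 20 were picked by p in this same comparison, so their separation adds no support. On the lower side in Q22 was Grin3a, an NMDA receptor subunit gene, with 53.4, 63.0 and 61.2 CPM in Q22 and 71.5, 80.3 and 78.5 CPM in NTg (log2 fold change -0.37, SE 0.09). Rxfp1, the relaxin receptor gene, had 4.63, 3.16 and 5.37 CPM in Q22 and 8.47, 5.79 and 7.34 CPM in NTg. The guanylate cyclase gene Gucy2e (-0.65), the kinase gene Nuak2 (-1.52) and the zinc finger gene Zfp968 (-1.17) were also lower by their log2 fold changes.

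On the higher side was Hjurp, a chaperone gene of the centromeric histone CENP-A, with 95.7, 98.1 and 98.0 CPM in Q22 and 76.6, 73.1 and 82.8 CPM in NTg. The zinc finger gene Zfp612 had 100.3, 107 and 109 CPM in Q22 and 81.2, 86.9 and 84.0 CPM in NTg. Both are differences of 0.33 on the log2 scale with an SE of 0.08 to 0.09. The collagen gene Col6a6 (1.77), the filamin-binding gene Fblim1 (0.93), Fam78a (0.78) and the smooth muscle myosin gene Myh11 (0.92) were higher by larger log2 fold changes at 1.09 to 7.25 CPM in Q22.

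Genes around Atxn2 were read separately, in case the human sequence sits at the mouse locus, which the labels do not give. Within 5 Mb on either side 168 genes were tested. Of these 0 were called and 10 had an unadjusted p under 0.05, 7 higher and 3 lower (5.95%, against 4.23% of all genes), with a median log2 fold change of 0.00. Within 10 Mb, 17 of 318 did (5.35%). Among the 10 genes within 5 Mb with an unadjusted p under 0.05, the largest estimate belonged to Tesc, the gene of the calcium-binding protein tescalcin, at -3.68 Mb from the start of Atxn2. Tesc had 8.60, 4.64 and 5.28 CPM in Q22 and 2.95, 3.02 and 2.14 CPM in NTg, a log2 fold change of 1.19 (SE 0.33, unadjusted p = 0.0019). Brap, a gene of the BRCA1-associated protein that starts about 0.05 Mb before Atxn2, had 52.7, 41.5 and 43.3 CPM in Q22 and 38.7, 39.4 and 36.6 CPM in NTg. Rph3a, a synaptic vesicle effector gene, had a log2 fold change of 0.30, Plbd2 of 0.33 and Denr, a translation re-initiation factor gene, of 0.33. Rad9b, a DNA damage checkpoint gene, was at 4.25, 5.58 and 4.44 CPM in Q22 and 5.56, 6.41 and 6.23 CPM in NTg, with a slight overlap.

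**Figure D3:**
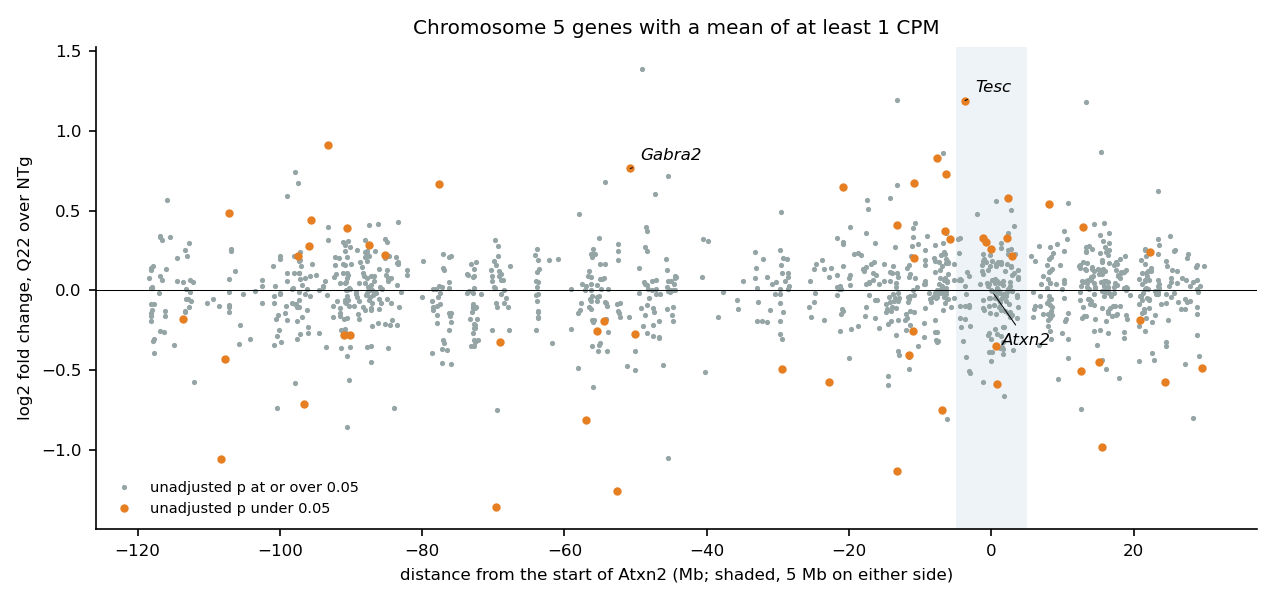
Log2 fold change of Q22 over NTg (vertical axis) for chromosome 5 genes averaging 1 CPM or more, against distance from the start of Atxn2 in Mb (horizontal axis; shading marks 5 Mb on either side); orange points have an unadjusted p under 0.05. Tesc, at 1.19, lies inside the shaded window and Gabra2, at 0.76, lies at -50.8 Mb; genes beside Atxn2 centre on 0.

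Genes of the RNA machinery around ataxin-2 had small estimates. Of 33 genes for its partners, poly(A) tail factors and granule proteins, 0 were called and 1 had an unadjusted p under 0.05 (3.03%). The median was -0.03 and the range -0.20 to 0.22. That one was Dcp2, which encodes the mRNA decapping enzyme, with 206, 214 and 219 CPM in Q22 and 183, 186 and 180 CPM in NTg (log2 fold change 0.22, SE 0.08). Pabpc1, the main cytoplasmic poly(A)-binding protein gene, had 139, 153 and 135 CPM in Q22 and 136, 167 and 173 CPM in NTg. The stress granule nucleator gene G3bp1 had 43.3, 42.9 and 39.2 CPM in Q22 and 43.9, 41.4 and 44.8 CPM in NTg. The helicase gene Ddx6 (-0.03), the paralog Atxn2l (0.03) and Pabpc4 (-0.02) had log2 fold changes close to 0. All of these but Dcp2 overlapped between the groups.

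Genes of hnRNP and other RNA-binding proteins had small estimates too. Of 28 tested, 0 had an unadjusted p under 0.05, and the median was -0.01. The splicing regulator gene Celf2 showed the smallest p of the list, 0.066, at 64.9, 72.4 and 81.9 CPM in Q22 and 92.5, 90.0 and 96.5 CPM in NTg. Hnrnpc followed, at 118, 139 and 116 CPM in Q22 and 120, 155 and 159 CPM in NTg.

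Disease genes were read in 3 lists. Among 34 ALS genes, 3 were higher and 1 lower in Q22 at an unadjusted p under 0.05 (11.8%, against 4.23% of all genes). Only 1 was without NTg replicate 3 or Q22 replicate 1, and 2 were without NTg replicate 2. Among them were Vapb, a membrane contact protein gene (log2 fold change 0.22), the autophagy receptor gene Optn (0.24) and Tardbp. Of 13 polyglutamine and ataxia genes 1 had an unadjusted p under 0.05 (7.69%, against 4.23% of all genes). This was the SAGA complex gene Atxn7l3, at 77.5, 76.4 and 70.7 CPM in Q22 and 61.3, 63.0 and 62.0 CPM in NTg. Of 26 long neuronal targets of TDP-43, 0 had an unadjusted p under 0.05, with a median of 0.01. Stmn2, an axonal growth gene that depends on TDP-43 in human neurons, was at 189 to 217 CPM in Q22 and 159 to 245 CPM in NTg.

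Neuronal lists had medians on either side of 0 and no called gene. Of 21 motor neuron genes, 19 had a positive estimate, the median was 0.21 (0.15 to 0.42 without each library in turn) and 1 had an unadjusted p under 0.05. This was Lhx4, a transcription factor gene, with 11.7, 8 and 7.25 CPM in Q22 and 5.79, 6.78 and 4.63 CPM in NTg. Chat, the gene of the enzyme that makes acetylcholine, overlapped, at 22.9, 21.3 and 14.6 CPM in Q22 and 13.3, 23.4 and 15.2 CPM in NTg. In bulk cord, fewer cells of a type and less RNA per cell cannot be told apart. The neurofilament gene Nefh had 1250, 533 and 798 CPM in Q22 and 683, 474 and 343 CPM in NTg, and its estimate of 0.78 was 0.41 without Q22 replicate 1. Nefm was spread alike. Of 17 pan-neuronal genes 0 had an unadjusted p under 0.05, with a median of 0.16. Of 13 ventral interneuron genes 0 did, and their median of 0.18 turned to -0.16 without Q22 replicate 3, -0.03 without NTg replicate 2 and -0.01 by DESeq2.

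Of 19 genes of dorsal horn excitatory neurons, which receive sensory input, 12 had a negative estimate and the median was -0.30. Only the gastrin-releasing peptide receptor gene Grpr had an unadjusted p under 0.05, at 2.08, 2.17 and 3.19 CPM in Q22 and 4.52, 2.76 and 4.49 CPM in NTg. Tac2, the neurokinin B gene, was separate, at 7.32, 8.44 and 11.4 CPM in Q22 and 13.5, 11.8 and 18.9 CPM in NTg, yet its 95% interval ran from -1.73 to 0.32. Among 19 inhibitory neuron genes 3 were higher at an unadjusted p under 0.05 (15.8%, against 4.23% of all genes) and the median was 0.00. The number was 0 without NTg replicate 3 or Q22 replicate 1, and 1 with a sex term. The glycine transporter gene Slc6a5 had 362, 350 and 374 CPM in Q22 and 294, 326 and 266 CPM in NTg. The glycine receptor gene Glra1 had 294, 228 and 285 CPM in Q22 and 258, 187 and 160 CPM in NTg, and parvalbumin, Pvalb, had 42.4, 24.3 and 28.5 CPM in Q22 and 27.0, 18.8 and 17.97 CPM in NTg. Glra1 and Pvalb overlapped between the groups and Slc6a5 did not.

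Calcium handling genes had 5 of 17 members with an unadjusted p under 0.05 (29.4%, against 4.23% of all genes), 4 higher and 1 lower. The number was 1 without NTg replicate 3 or Q22 replicate 3, and 2 without NTg replicate 2, without Q22 replicate 1 or under library totals. The plasma membrane calcium pump gene Atp2b2 had 862, 766 and 832 CPM in Q22 and 753, 676 and 588 CPM in NTg. Calretinin, Calb2, had 122, 98.2 and 120 CPM in Q22 and 86.7, 89.0 and 85.3 CPM in NTg. The inositol trisphosphate receptor gene Itpr2 (log2 fold change 0.20) and Pvalb were the other higher members. Calbindin, Calb1, ran the other way, with 36.9, 37.1 and 34.9 CPM in Q22 and 43.3, 42.95 and 53.2 CPM in NTg. Calb1, Calb2 and Pvalb also mark subsets of spinal neurons, and the part of cell mixture in these values was not tested.

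Among 26 ion channel and glutamate receptor genes, 3 were higher and 2 lower at an unadjusted p under 0.05 (19.2%, against 4.23% of all genes). The number was 0 without NTg replicate 3 or Q22 replicate 1, 1 with a sex term and 10 in the fit to the 6 libraries. The potassium channel gene Kcna1 had 294, 268 and 291 CPM in Q22 and 237, 256 and 211 CPM in NTg. The sodium channel gene Scn2a had 136, 146 and 158 CPM in Q22 and 181, 161 and 192 CPM in NTg. Of 22 synaptic vesicle genes 2 were higher (9.09%, against 4.23% of all genes), and the median was 0.10. These were the complexin gene Cplx1 (log2 fold change 0.41) and Sv2c (0.27). Cplx1 had 969, 776 and 845 CPM in Q22 and 732, 644 and 578 CPM in NTg, with no overlap. In the synaptic vesicle list, 0 had an unadjusted p under 0.05 without NTg replicate 3 or Q22 replicate 1.

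Glial and immune lists held few small p values. Of 14 general astrocyte genes, 12 oligodendrocyte precursor genes and 23 disease-associated microglia genes, 0 had an unadjusted p under 0.05, and their medians were -0.03, -0.03 and 0.07. Aqp4, the astrocyte water channel gene, had 683, 774 and 768 CPM in Q22 and 884, 707 and 960 CPM in NTg. Of 21 myelin genes 1 did (Itpr2, median -0.06), and of 20 homeostatic microglia genes 1, Gpr34, at 6.56, 8.59 and 8.76 CPM in Q22 and 9.13, 11.1 and 14.8 CPM in NTg. Of 18 reactive astrocyte genes 3 had an unadjusted p under 0.05 (16.7%, against 4.23% of all genes). Serping1 (log2 fold change 0.81) and the proteoglycan gene Srgn (0.85) were higher, and Cd44 was lower. The number was 0 with a sex term and without NTg replicate 3 or Q22 replicate 3. Cd44, a hyaluronan receptor gene, had 17.8, 19.2 and 19.9 CPM in Q22 and 28.8, 20.8 and 36.5 CPM in NTg. The complement gene C3, with an unadjusted p of 0.076, had 66.1, 96.0 and 86.5 CPM in Q22 and 184, 87.7 and 211 CPM in NTg, so that 1 NTg library lay inside the Q22 range.

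Of 25 interferon-response genes 20 had a negative estimate, with a median of -0.18 and 0 at an unadjusted p under 0.05. With a sex term the median was 0.07, so the direction turned. The antiviral gene Mx2, first in the list by p, had 2.17, 3.70 and 3.40 CPM in Q22 and 3.60, 4.64 and 4.89 CPM in NTg. Of 18 complement genes 1 was higher, the C1 inhibitor gene Serping1, at 1.79, 1.33 and 1.80 CPM in Q22 and 1.07, 0.782 and 0.934 CPM in NTg. Of 20 histocompatibility genes 2 were higher (10%, against 4.23% of all genes). The class I gene H2-D1 had 41.0, 33.4 and 32.2 CPM in Q22 and 28.1, 24.4 and 25.8 CPM in NTg, with no overlap, and the class II gene H2-Ab1 overlapped at under 1 CPM. Members of this family share sequence, so that reads matching several genes were left out and single genes are uncertain.

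Vascular and meningeal genes had a few members apart. Of 9 pericyte and smooth muscle genes, 2 were higher at an unadjusted p under 0.05 (22.2%, against 4.23% of all genes). These were Myh11 and the smooth muscle actin gene Acta2. Myh11 had 6.28, 6.96 and 7.25 CPM in Q22 and 4.83, 2.55 and 3.38 CPM in NTg. Acta2 had 2.79, 3.11 and 1.89 CPM in Q22 and 1.38, 1.199 and 0.845 CPM in NTg. Tagln, another smooth muscle gene, overlapped, with a log2 fold change of 0.05, and the summed list ranged from 108 to 171 CPM in Q22 and from 104 to 144 CPM in NTg. Of 14 endothelial genes 2 had an unadjusted p under 0.05 (14.3%, against 4.23% of all genes). The cadherin gene Cdh5 (0.54) was higher. The apelin receptor gene Aplnr was lower, at 4.39, 5.98 and 4.82 CPM in Q22 and 11.96, 6.20 and 14.6 CPM in NTg.

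Fibroblast and meningeal genes summed to 115 to 136 CPM in Q22 and 93.8 to 109.9 CPM in NTg (exact two-sided permutation test, p = 0.1, the smallest possible). Of 14 tested, 3 were higher and 1 lower at an unadjusted p under 0.05 (28.6%, against 4.23% of all genes), but 0 were without NTg replicate 1 or with the mitochondrial covariate, 1 without Q22 replicate 1 or with a sex term, and 2 without Q22 replicate 2 or replicate 3. Col1a1 had 2.08, 2.91 and 3.94 CPM in Q22 and 1.80, 2.14 and 1.96 CPM in NTg, while Col1a2 was at 12.7 to 15.3 CPM in Q22 and 13.97 to 17.2 CPM in NTg and Col6a2 was lower (log2 fold change -0.65). Of 15 genes of ependymal cells, which line the central canal, 13 had a negative estimate, with a median of -0.31. An unadjusted p under 0.05 was reached by 2 (13.3%, against 4.23% of all genes), Rarres2 (-0.89) and the ciliary gene Ak7 (-0.76). The summed ependymal level overlapped, at 125 to 138 CPM in Q22 and 120.0 to 167 CPM in NTg.

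Skeletal muscle genes were measured at very low levels. All 8 tested of 13 members had a positive estimate, with a median of 2.46. Of the 8, 5 had an unadjusted p under 0.05 (62.5%, against 4.23% of all genes). The summed level was 2.41, 2.81 and 14.4 CPM in Q22 and 1.57, 1.98 and 1.25 CPM in NTg. Replicate 3 of Q22 carried most of it, and without that library the median was 0.69 and 0 members had an unadjusted p under 0.05. The myosin gene Myh4 had 0.189, 0.0988 and 4.36 CPM in Q22 and 0, 0.156 and 0.0890 CPM in NTg, and Myl1 had 0.189, 0.494 and 1.84 CPM in Q22 and 0.0767, 0.104 and 0.0445 CPM in NTg. The part of muscle RNA in other differences was not tested. Erythroid (7 tested, median 0.42), Schwann cell (6, 0.03), dorsal root ganglion (5, 0.35) and adipocyte (2, 0.13) genes had 0 members with an unadjusted p under 0.05.

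All 35 nuclear oxidative phosphorylation genes had a positive estimate, with a median of 0.21. An unadjusted p under 0.05 was reached by 4 of them (11.4%, against 4.23% of all genes), while 0 were called. The median was 0.09 without Q22 replicate 1 and 0.30 without Q22 replicate 2, and 0 and 10 members then had an unadjusted p under 0.05. With a sex term, or without NTg replicate 2 or NTg replicate 3, 0 did, and without NTg replicate 1, 7 did. Ndufb8, a complex I gene, had 24.7, 10.6 and 14.7 CPM in Q22 and 12.6, 9.17 and 8.58 CPM in NTg. Ndufb5 had 29.9, 24.9 and 23.8 CPM in Q22 and 19.6, 21.4 and 21.2 CPM in NTg, and was separate where Ndufb8, Ndufa2 and Ndufb9 overlapped. Of 13 mitochondrially encoded genes 11 had a positive estimate, with a median of 0.49 and 0 at an unadjusted p under 0.05, and the median was 0.18 without Q22 replicate 1. The cytochrome b gene mt-Cytb had 2771, 1298 and 2116 CPM in Q22 and 1832, 1269 and 1042 CPM in NTg. The small mitochondrial ribosomal RNA mt-Rnr1 was more spread still, at 36445, 8751 and 22444 CPM in Q22 and 20874, 8429 and 7003 CPM in NTg. In both groups replicate 1 was the highest, and mt-Rnr1 overlapped.

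Of 48 ribosomal protein genes 36 had a positive estimate, with a median of 0.08 and 0 at an unadjusted p under 0.05. With scaling by library totals alone the median of all genes was -0.08 and that of the ribosomal protein genes -0.01, so their sign depends on the scaling, while the oxidative phosphorylation genes kept a median of 0.11. Of 28 proteasome genes 1 was higher, Psmb3 (log2 fold change 0.40), with a median of 0.07 that was -0.01 under library totals. Heat shock genes (0 of 19, median 0.06), unfolded protein response genes (1 lower of 22, Psat1) and autophagy and lysosome genes (3 higher of 27, median 0.03) had medians whose sign turned under library totals too. The 3 higher autophagy and lysosome genes had an unadjusted p under 0.05 and made up 11.1% of their list, against 4.23% of all genes. Of that list, 0 had an unadjusted p under 0.05 without NTg replicate 3 or Q22 replicate 1. Map1lc3a, which encodes the autophagosome protein LC3A, had 29.8, 15.4 and 23.4 CPM in Q22 and 18.4, 13.4 and 11.9 CPM in NTg.

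Metabolic and regulatory lists had medians near 0. Ataxin-2 is linked to insulin and mTOR signalling, and of 26 genes of that list 0 had an unadjusted p under 0.05, with a median of -0.01. Mtor itself had 188, 180 and 174 CPM in Q22 and 180, 165 and 159 CPM in NTg. Of 24 cholesterol synthesis genes 1 did (Nsdhl, log2 fold change 0.31), of 23 fatty acid genes 1 and of 15 glucocorticoid-response genes 1, in both cases Plin4. Plin4, a lipid droplet coat gene, had 2.74, 3.56 and 4.07 CPM in Q22 and 5.41, 5.26 and 7.78 CPM in NTg. Of 15 axon injury genes 1 was higher (6.67%, against 4.23% of all genes), the TWEAK receptor gene Tnfrsf12a (0.59). Immediate early genes (16 tested, median 0.11) and clock genes (18, 0.02) had 0. Of 10 nuclear long noncoding RNAs 1 was lower (10%, against 4.23% of all genes), Snhg1 (-0.46).

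Hox genes mark the level along the cord. Averaged over genes of the Hox10 and Hox11 groups, which mark the lumbar and sacral cord, the log2 CPM was -1.36 ± 1.01 in Q22 and -1.43 ± 0.601 in NTg (SD, n = 3 each; exact two-sided permutation test, p = 0.9). Over all 18 libraries this average ran from -2.46 to 3.54, and the part of cord level in other differences was not tested. Hoxc10 had 0.661, 0.296 and 27.5 CPM in Q22 and 13.2, 0.678 and 6.09 CPM in NTg, and replicate 3 of Q22 was the highest of the 6. Hoxa10 had 0.992, 1.23 and 15 CPM in Q22 and 4.29, 1.41 and 2.27 CPM in NTg. Of 6 genes of the list 0 had an unadjusted p under 0.05. Of 17 cervical and thoracic Hox genes 2 were higher (11.8%, against 4.23% of all genes). These were Hoxa5 (log2 fold change 0.38) and Hoxc5 (0.59), with overlapping libraries. Of this list, 0 had an unadjusted p under 0.05 without NTg replicate 3, Q22 replicate 1 or Q22 replicate 2. Likewise 0 did under library totals, with a sex term or with the mitochondrial covariate.

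**Figure D4:**
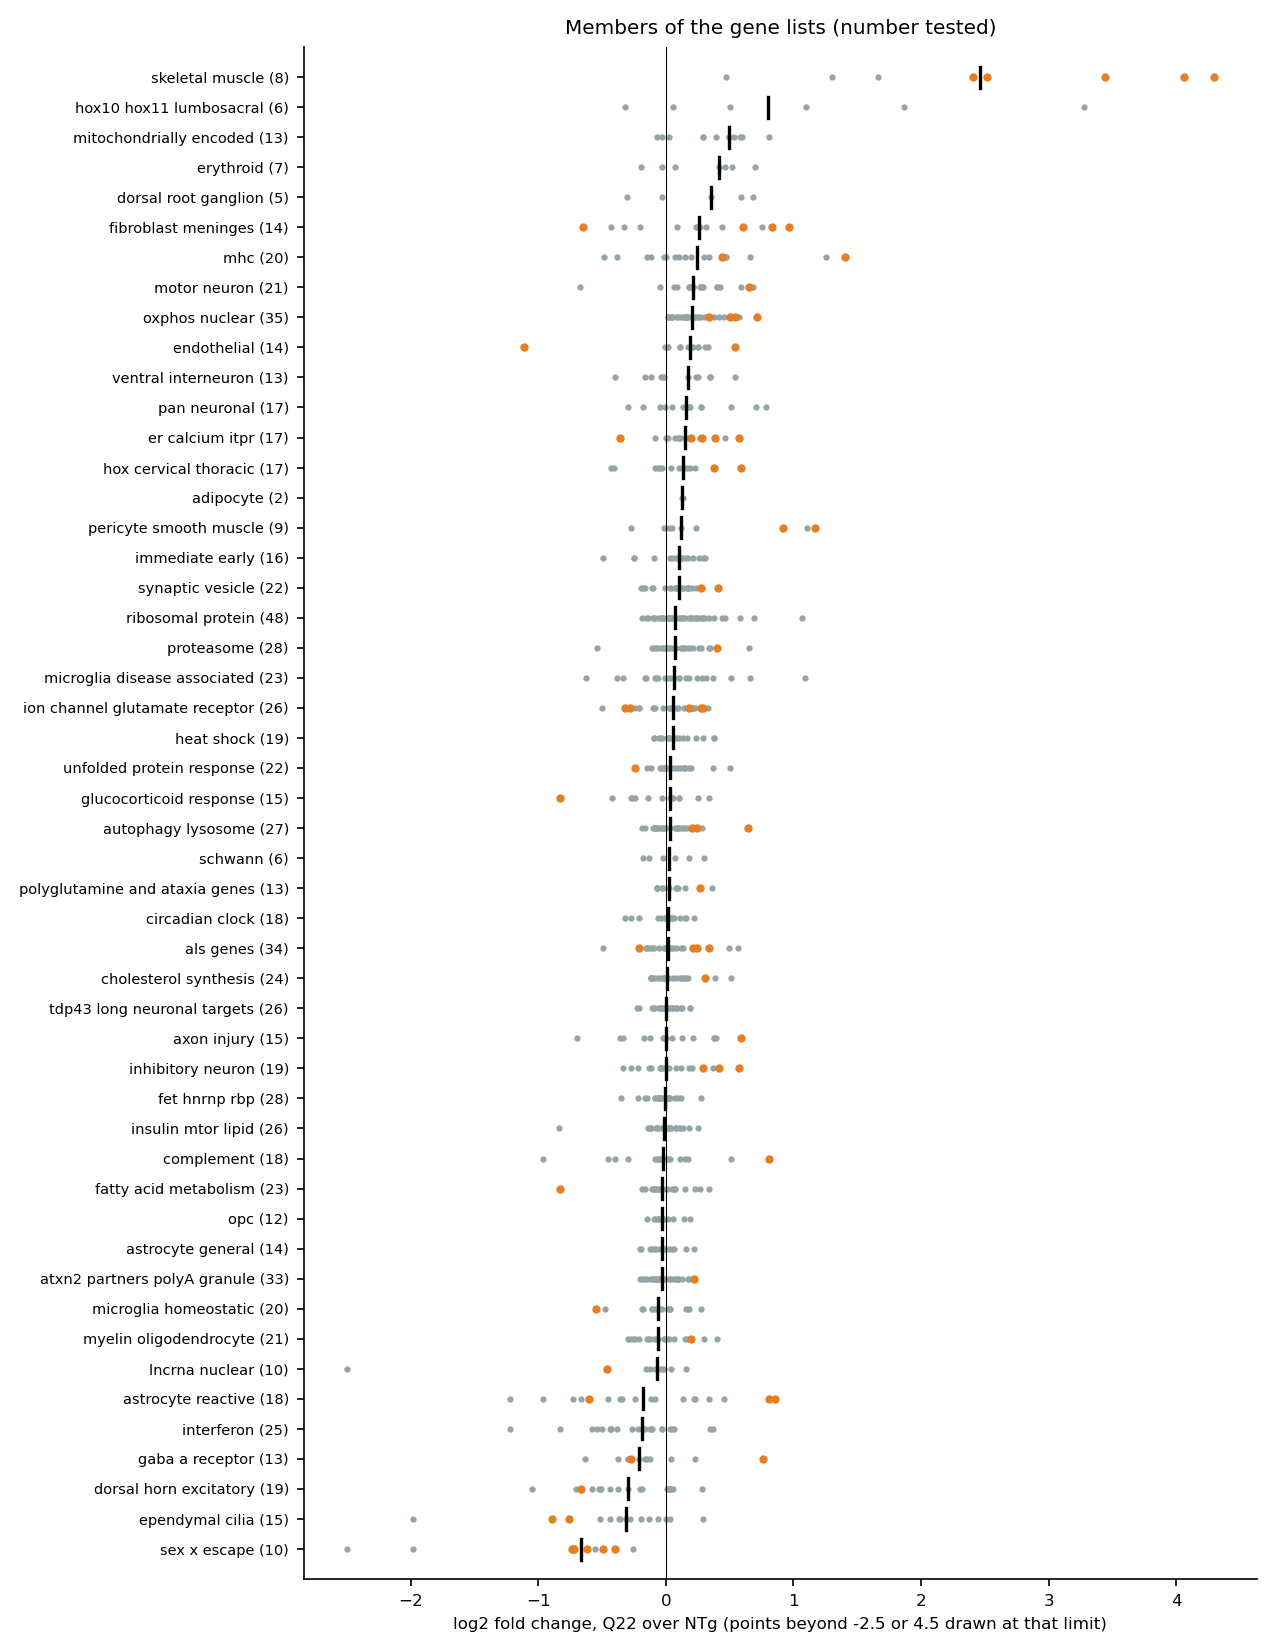
Log2 fold change of Q22 over NTg (horizontal axis) for the tested members of the gene lists (rows, number tested in brackets), leaving out the lists of Y-linked genes, substrain genes, mitochondrial ribosomal RNA and Atxn2 with Tardbp; black ticks are list medians and orange points have an unadjusted p under 0.05. Of the lists drawn, skeletal muscle genes lie at the top with a median of 2.46, X-linked escape genes at the bottom with -0.67, and partners of ataxin-2 lie within 0.22 of 0.

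Q22 was measured a second time in 6 other animals, on the TDP-43 background. The Q22 double knock-in against TDP-43 called 0 of 20635 genes by edgeR (percent called 0) and 0 by DESeq2, with 497 genes at an unadjusted p under 0.05 by edgeR (2.41%, with 1.26% higher and 1.14% lower) and 540 by DESeq2. Sex was mixed there, since the Y-linked sum was over 10 CPM in 1 library of the Q22 double knock-in and 2 libraries of TDP-43. The imbalance ran the other way in Q22 against NTg, where every Q22 library and no NTg library was over 10 CPM. Sex thus changed along with background, so the 2 cannot be fully told apart where the fold changes are compared. Across the same 16703 genes, the fold changes on the 2 backgrounds had a Spearman rho of -0.15, given as a description over genes that share libraries. The 20 genes with the smallest p in Q22 against NTg were taken outside X and Y, at a mean of 1 CPM or more. Of these, 7 had the same sign on the TDP-43 background. Of these 20, 5 had an unadjusted p under 0.05 there, and 1 of the 5, Gabra2, had the same sign, with a log2 fold change of 0.43 (SE 0.14).

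The other 4 went the opposite way. Rxfp1 had 7, 6.69 and 5.02 CPM in the Q22 double knock-in and 5.09, 3.73 and 4.26 CPM in TDP-43. Fam78a had 5.44, 4.58 and 4.24 CPM in the Q22 double knock-in and 4.86, 7.80 and 6.53 CPM in TDP-43. Capn11 (-1.63) and the gene model Gm37758 (-1.10) were the remaining ones. Tardbp, lower in Q22 alone, had a log2 fold change of 0.00 on the TDP-43 background, Dcp2 one of 0.06 and Grin3a one of 0.10. Ide, outside the 20, was higher on both, by 0.42 against NTg and by 0.56 against TDP-43 (unadjusted p = 0.0013).

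The difference between the backgrounds was tested as an interaction. It called 0 of 20635 genes by edgeR (percent called 0), with 828 at an unadjusted p under 0.05 (4.01%, with 2.07% positive and 1.94% negative) and a smallest adjusted p of 0.44, for Gm37758. DESeq2 called 2, Capn11 and Gm37758, both with a lower Q22 effect on the TDP-43 background, and had 924 at an unadjusted p under 0.05. For Gabra2 the unadjusted interaction p was 0.11, for Tardbp 0.041 and for Grin3a 0.0011. No difference between backgrounds can therefore be stated for these 3 genes.

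**Figure D5:**
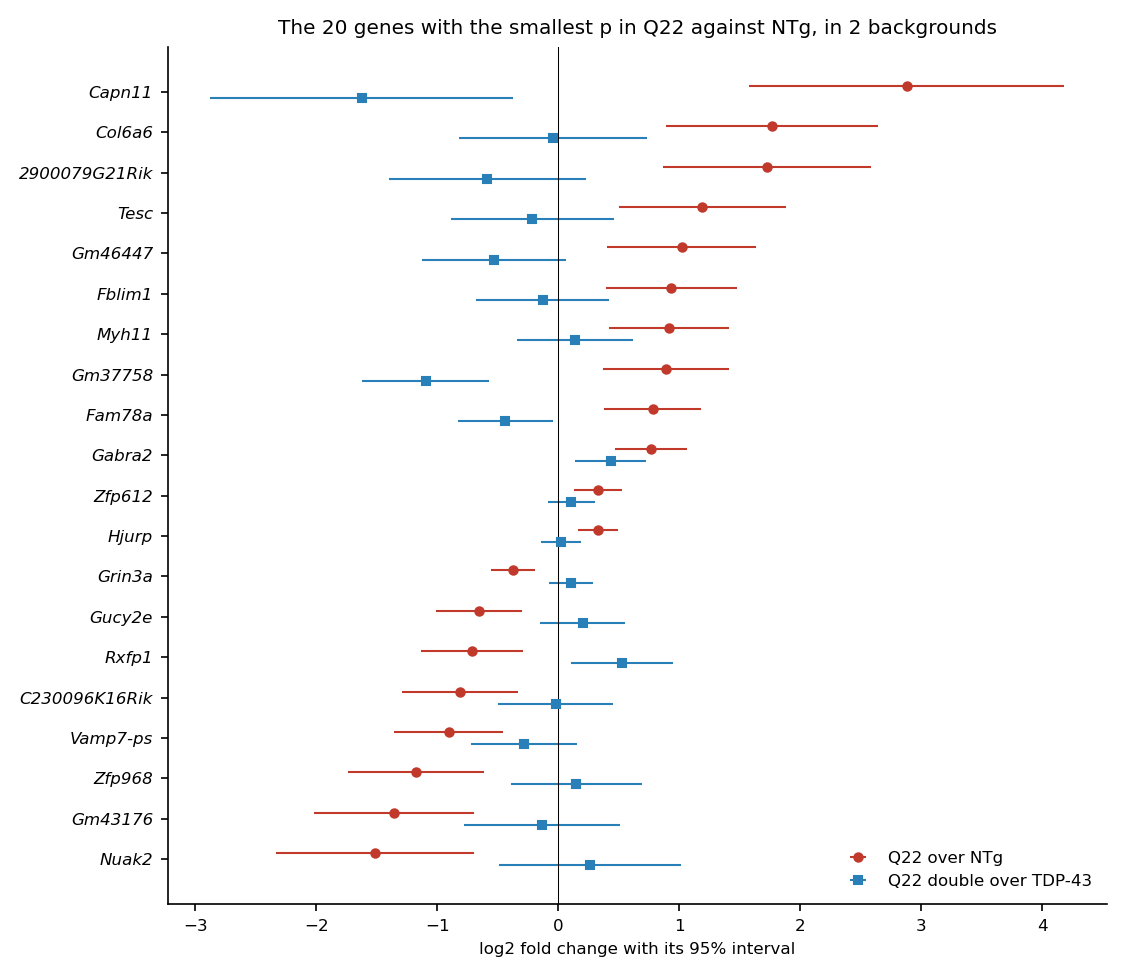
Log2 fold change with its 95% interval (horizontal axis) of 20 genes (rows). These have the smallest p in Q22 against NTg outside X and Y, at a mean of 1 CPM or more. Red circles are Q22 over NTg and blue squares the Q22 double knock-in over TDP-43. Gabra2 lies above 0 in both, at 0.76 and 0.43, while Capn11 lies at 2.88 and -1.63.

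Q22 was also set against Q33, its partner with the longer tract, to separate tract length from the presence of human ATXN2. Sex was not balanced in this comparison. Q33 replicate 3 had 2.45 CPM of Y-linked reads and 473 CPM of Xist, whereas Q33 replicates 1 and 2 had 175 and 206 CPM of Y-linked reads, as did all Q22 libraries at 162 to 200 CPM. Here 0 genes were called by edgeR (percent called 0), with 442 at an unadjusted p under 0.05 (2.14%, with 1.08% higher and 1.06% lower in Q22), and DESeq2 called 1, Dbp, with 469. Dbp, an output gene of the circadian clock, had 31.2, 29.5 and 30.4 CPM in Q22 and 18.1, 16.4 and 13.2 CPM in Q33, beside 29.3, 28.3 and 29.7 CPM in NTg. Its adjusted p by edgeR was 0.11. Gabra2 differed by 0.57 on the log2 scale (SE 0.14, unadjusted p = 7.1e-04), Ide by 0.46 and Capn11 by 1.83, all higher in Q22, while Atxn2 differed by 0.02 and Tardbp by -0.12.

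Q33 and Q22 were both read against the same NTg libraries, so their fold changes over NTg share those values and are given side by side only. Gabra2 was at 0.76 in Q22 and 0.19 in Q33 over NTg, Tesc at 1.19 in Q22 and 0.98 in Q33, and Grin3a at -0.37 in Q22 and -0.32 in Q33. Col6a6 was at 1.77 in Q22 and 1.5 in Q33, and Tardbp at -0.21 in Q22 and -0.09 in Q33. Q33 against NTg called 0 genes by edgeR (percent called 0), with 1502 at an unadjusted p under 0.05 (7.28%, with 3.34% higher and 3.94% lower in Q33). DESeq2 was not run for it.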

How the data were processed

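Whole-number read counts per gene were deposited by the authors in 1 table. Per the file headers, featureCounts 1.6.1 assigned read pairs from TopHat alignments to GENCODE vM19 exons by strand, leaving out pairs that match several genes, so near-identical genes are undercounted. Gene length in the same table was not used in a test. Trim Galore 0.4.1, TopHat2, featureCounts, DESeq2 and mm10 are named in the submitters' processing notes. Per the labels' protocols, ribosomal RNA was depleted, libraries were stranded and RNA integrity numbers were above 7.5. Symbols matched 54409 of 54446 identifiers (99.93%). The Atxn2 sequence is from GENCODE vM21 transcripts on GRCm38, the same build.

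Comparisons used the quasi-likelihood test of edgeR 4.0.16 (with R 4.3.3 and limma 3.58.1), two-sided, with TMM scaling, edgeR's low-count filter and 1 fit to all 18 libraries with a term per genotype. P-values were adjusted by Benjamini-Hochberg over 20635 genes at 0.05. CPM use library totals times TMM factors, log2 CPM a prior count of 2. Alternatives were DESeq2 1.42.0, other scalings, no filter, a fit to the 6 libraries alone, sex and mitochondrial covariates and leaving out each library. The procedure was tested on simulated data. Replicate numbers follow accession order and pair nothing. P-values of the main fit set each difference against a spread between libraries that is estimated over all 18. Floors of 3 counts cover counting error only, since PCR copies carry no molecular identifiers here.

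The groups, 54 gene lists and tests were chosen with earlier results of these data known. Named genes are Atxn2 and Tardbp; sex-linked list members; the 20 smallest p outside X and Y averaging 1 CPM or more in Q22 or NTg; the 2 smallest p of each list; and partner or RNA-binding protein genes with an unadjusted p under 0.05. Other genes named were picked after their values were seen, as were those of the 5 Mb window; some gene models stay unnamed and some genes are not reported here.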

Additional observations from a re-analysis of the deposited data

How the results depend on the processing

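The count of genes called in Q22 against NTg was 0 under RLE size factors, library totals, a sex covariate and a covariate for mitochondrial ribosomal RNA (chosen after seeing the data), and 0 without each replicate in turn. It was 6 in the fit to only the 6 samples and 2 by DESeq2, where list members made up 5 and 1 of them. Without a filter on low counts edgeR called 238 genes, 65 of them list members, and 49 in the Q22 double knock-in against TDP-43, 193 in the interaction and 70 in Q22 against Q33. That fit covered 39219 genes and estimated an infinite prior, which gives each gene the spread of its abundance trend instead of its own. DESeq2 called 2 in the interaction and 1 in Q22 against Q33; the cause was not tested. Without each replicate in turn the calls of the Q22 double knock-in ranged from 0 to 1 (Gm6768, without its replicate 3), and those of the interaction and of Q22 against Q33 were 0. The Q22 minus NTg difference in mitochondrial ribosomal RNA ranged from 0.596 to 3.37 percentage points and that in Hox10 and Hox11 from -0.52 to 0.38. Of 131 named genes some turned in sign. Under the sex covariate these were Uty (-0.61), Kdm5d (-0.85), Kdm5c (0.0872), Xist (2.57), Tsix (1.36), Pbdc1 (0.11), Fcrls (0.0859), Drp2 (0.0753), Hbb-bs (-0.0212), Hba-a1 (-0.0848), mt-Rnr2 (-0.0657) and Atxn2 (-0.0304). Atxn2 was -0.0822 under library totals, and mt-Rnr2 was -0.0223 and Atxn2 -0.0125 with the mitochondrial covariate. Without each library in turn the estimate ranged from -0.0549 to 0.0449 for Atxn2, -0.00605 to 0.319 for mt-Rnr2, -0.18 to 0.28 for Pparg, -1.28 to 1.65 for Hoxa10 and -0.52 to 2.70 for Hoxd10. No paired analysis was possible because the labels give no replicate numbers.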
